A study of Mus musculus with 26 samples.

Results

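JAK-STAT signalling was followed through 10 of its genes in mouse dorsal root ganglia, which hold the cell bodies of sensory neurons. The genes were chosen as a list of symbols, and all 10 are among the 55401 genes of the deposited tables. They comprise 3 transcription factors (Stat3, Stat5a and Stat5b), 2 kinases (Jak1 and Jak2) and 5 inhibitors (Socs1, Socs2, Socs3, Cish and Pias3).

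JAK kinases sit on cytokine receptors. When a cytokine of the interleukin-6 family binds the shared receptor chain gp130, encoded by Il6st, the kinases phosphorylate STAT proteins, which enter the nucleus and switch on genes. Several of these genes encode SOCS proteins, which bind the kinases or receptors and turn the signal down, and PIAS proteins restrain STATs in the nucleus. In sensory neurons Stat3 is known for its part in axon regeneration after nerve injury, and Socs3 for limiting it.

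The libraries came from 10 groups, and the study asked how the aryl hydrocarbon receptor, Ahr, bears on axon regeneration. Naive ganglia came from 3 control and 3 cKO mice, and crushed-nerve ganglia from 3 control and 3 cKO mice 1 day after sciatic nerve crush. All 12 of these mice had been given tamoxifen, 100 mg/kg on each of 5 days, when 28 weeks old, and L4 to L6 ganglia were taken, or the nerve was crushed, after another 5 weeks. The cKO mice were Ahr f/f with Thy1-CRE(ERT2/EYFP), a tamoxifen-dependent recombinase driven by the Thy1 promoter, which is active in neurons and not in every cell of a ganglion. Controls of the naive and crush groups were Ahr fl/+ (2 mice a group) or Ahr fl/fl (1 mouse a group), with no recombinase named in their labels. Ganglia from the side of a sham operation (ipsilateral) and from the opposite side (contralateral) were taken 1 day after surgery, from 2 cKO mice, 1 Ahr f/+ control and 1 Ahr fl/fl control. Semi-purified neurons from 3 cKO and 3 Ahr fl/fl control mice were collected 24 h after seeding. For all 10 groups the labels give a zeitgeber time (hours after lights on) of 2 to 4 h. For the sham and neuron groups, age and tamoxifen treatment are not given in the sources used here. Each library of the naive and crush groups was 1 mouse, and the neuron libraries carry mouse numbers in their names.

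Total counts ranged from 20169388 to 23540375 over the 12 naive and crush libraries, from 39306414 to 58751270 over the 8 sham libraries, and the 6 neuron libraries lay between 25299938 and 88180611. All 6 neuronal markers were detected in every library. Ahr overlapped between cKO and control libraries in all 5 settings: it lay between 21.4 and 26.8 CPM (counts scaled to a common library total) in naive cKO against 18.01 to 22.8 in naive control, and between 44.4 and 57.0 in cKO neurons against 44.8 to 55.0 in control neurons. The tables give 1 count for the whole gene, so loss of single exons in some cells is not seen in them, and libraries are called cKO by their label. Thy1 was higher in cKO than in control libraries without overlap in all 5 settings (fitted log2 differences from 0.51 to 1.01). By edgeR it was called in naive (adjusted p = 0.00191) and crush ganglia (adjusted p = 0.00521). It was not called in contralateral sham ganglia (adjusted p = 0.105), ipsilateral sham ganglia (adjusted p = 0.498) or neurons (adjusted p = 0.298). By Xist and Y-linked transcripts, 2 of 26 libraries differed from their labelled sex: crush control replicate 3 was female and crush cKO replicate 2 was male. One is in each genotype, so an exchange of labels or libraries would touch both crush effects and the crush genotype comparison. In Thy1 each followed its genotype label, at 746 CPM in the control library (719 to 769 in its group) and 1397 CPM in the cKO library (1182 to 1397 in its group). By transcripts the crush cKO group held 1 female and 2 male libraries, beside 3 female libraries in each of the naive cKO, naive control and crush control groups, and all sham libraries were male. All 6 neuron libraries were female by label and by transcripts. Naive control replicate 1 stood apart in neutrophil markers (summed 579 CPM against 94.4 and 147 in the other two) and ipsilateral cKO replicate 2 in skeletal muscle markers (summed 1371 CPM against 3.43 to 17.2 in the other ipsilateral libraries). Control neuron replicate 1 had 25299938 counts, against 60139821 to 88180611 in the other neuron libraries. Its satellite glia markers summed to 1779 CPM, against 947 to 1233 CPM in those.

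STAT3 and STAT5 bind a short palindrome, TTCNNNGAA, which reads the same on both strands. Promoters are shown for the SOCS family genes that were called after nerve crush, apart from Socs2, for which no promoter sequence was given. RefSeq windows of 300 bases (250 before to 50 after each start, GRCm38.p6) were given for 9 of the 10 genes and not for Socs2. The palindrome occurred in the windows of 2 of these 9 genes, Cish and Socs3, against 2582 of 27025 genes (9.55%) with a window. Cish had 2 copies, and 150 of 32851 windows (0.457%) held 2 or more. Capitals mark the palindrome, and all sequences run 5′ to 3′ in the direction of the gene.
Socs3, 86 to 250 bases before the RefSeq start and outside annotated exons, minus strand, chr11:117969452-117969616: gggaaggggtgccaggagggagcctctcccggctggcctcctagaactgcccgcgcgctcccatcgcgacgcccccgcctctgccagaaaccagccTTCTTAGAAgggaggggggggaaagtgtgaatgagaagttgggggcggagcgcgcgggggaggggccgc
Cish, 30 bases around the RefSeq start, plus strand, chr9:107296656-107296685: gttTTCCTGGAAagTTCTTGGAAatctgtc
Socs1, 250 bases before the start, minus strand, chr16:10785537-10785786: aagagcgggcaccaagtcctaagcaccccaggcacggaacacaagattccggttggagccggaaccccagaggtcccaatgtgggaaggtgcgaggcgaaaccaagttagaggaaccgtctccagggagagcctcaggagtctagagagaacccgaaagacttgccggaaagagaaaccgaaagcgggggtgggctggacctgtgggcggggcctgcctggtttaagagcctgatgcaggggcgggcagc
The Socs3 copy, TTCTTAGAA, lay 154 bases before the RefSeq start, position 117969366. GENCODE starts Socs3 further upstream, at 117970047, so this stretch lies inside the GENCODE gene. The first Cish copy, TTCCTGGAA, began at base 1 of the RefSeq transcript and the second, TTCTTGGAA, at base 12. GENCODE starts Cish further upstream, so its exon covers this stretch. A match is a description of these letters and says nothing of binding in these samples.

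Of the 10 genes, 3 neighbour each other on chromosome 11, in GRCm38 with the GENCODE M21 annotation. Stat5b (chr11:100780731-100850724, minus strand) lies 8626 bases from Stat5a (chr11:100859351-100885169, plus strand), whose end overlaps that of Stat3 (chr11:100885098-100939540, minus strand) by 72 bases. Stat3 counts were 3480% of Stat5a counts, and reads in shared stretches were counted for both genes without regard to strand, so Stat5a values are uncertain. Stat5a and Stat5b also share 608 stretches of 50 identical bases, 8.21% of those in Stat5a transcripts and 10.98% of those in Stat5b transcripts. Cish (chr9:107296026-107302784, plus strand) overlaps 2 antisense genes, Gm17041 and Gm17040, whose counts were 73.5% and 12.5% of those of Cish, so reads of the 3 genes cannot be told apart. Socs3 (chr11:117966079-117970047) and Socs1 (chr16:10782240-10785536) overlap no other annotated gene.

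Between genes, levels were compared as CPM per kilobase of exon. In naive control ganglia Jak1, the kinase of gp130 receptors and many others, had the highest of the 10 levels at 40.2 ± 2.94 (SD, n = 3) per kilobase. Stat3 followed at 26.8 ± 1.77 and Stat5b at 9.15 ± 0.245. Socs3 (5.36 ± 1.88), Jak2 (5.19 ± 0.331), Pias3 (4.97 ± 0.0814) and Socs2 (4.58 ± 0.116) came next, and the SD of Socs3 spanned the means of the other three. Cish (1.11 ± 0.0773), Stat5a (0.960 ± 0.083) and Socs1 (0.599 ± 0.133) were the lowest. In neurons 24 h after seeding the order had changed at the top: in the control group Stat3 stood at 61.1 ± 0.533 per kilobase, above Jak1 at 45.7 ± 2.62, and Socs3 followed at 32.2 ± 3.81.

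Across the 10 groups, Socs3 had the widest span: its group means in CPM differed 8.73-fold between the lowest and the highest group. Socs1 spanned 6.58-fold and Cish 5.25-fold. Stat5b (1.61-fold), Jak1 (1.65-fold) and Pias3 (1.86-fold) spanned least. Naive and crush groups were deposited in 1 table and sham and neuron groups in another, and they differ in sex and treatment, so levels between the 2 tables are a description. Stat3, for example, averaged 255 CPM in naive control ganglia and 471 CPM in contralateral sham control ganglia, although neither had a damaged nerve, and Jak1 averaged 290.4 and 479.8 CPM.

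**Figure D1:**
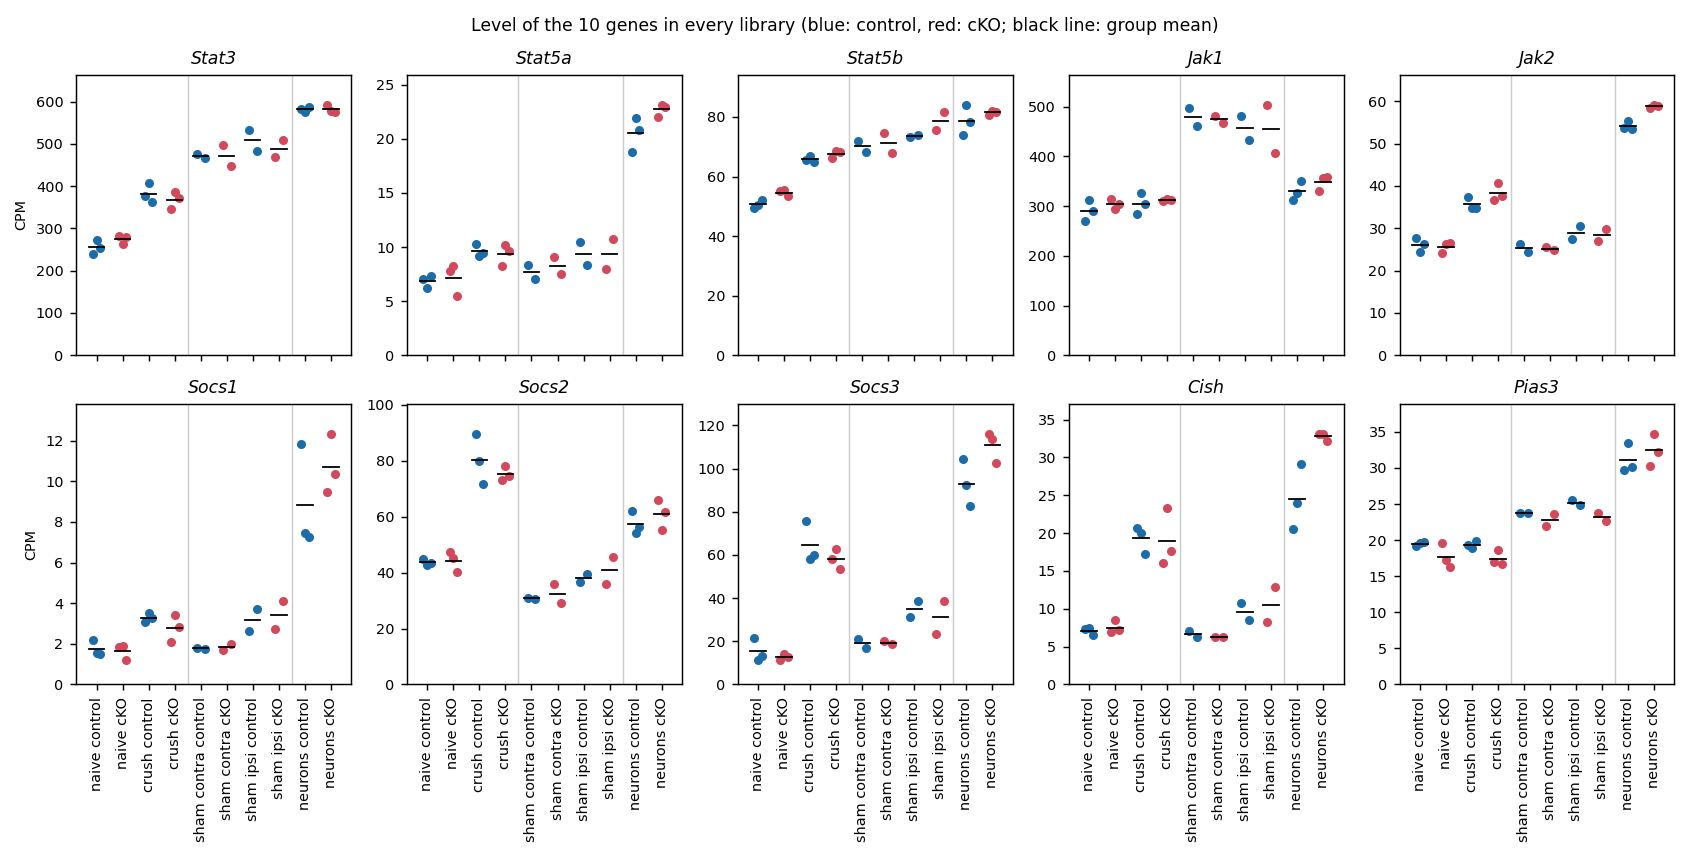
CPM (counts scaled to a common total over all 26 libraries) of each of the 10 genes in every library, by group, on axes that start at 0. Points are libraries, black lines are group means, and grey lines separate naive and crush ganglia, sham ganglia and cultured neurons. Socs3 rises from 11.3 to 21.7 CPM in naive ganglia to 53.5 to 75.8 CPM after crush and 82.5 to 116 CPM in neurons.

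For Socs3 the order of group means was naive cKO, naive control, contralateral control, contralateral cKO, ipsilateral cKO, ipsilateral control, crush cKO, crush control, control neurons and cKO neurons. The 4 groups of uninjured or contralateral ganglia each overlapped the next. Contralateral and ipsilateral sham groups were apart, as were ipsilateral sham and crush groups, and crush groups and neurons. For Stat3 naive, crush, sham and neuron groups followed each other in that order, the crush groups at 368 ± 20.6 and 382 ± 23.1 CPM being apart from the lowest sham group at 471 ± 6.91 CPM. Each pair of genotypes in the same setting overlapped for Stat3, and for Socs3 too. For Cish, contralateral sham and naive groups (means from 6.25 to 7.52 CPM) came before ipsilateral sham, crush and neuron groups.

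By Pearson's r of mean log2 CPM over the 10 groups, the genes most like Socs3 among 14166 compared were Il4ra (r = 0.992), Sez6l (0.990) and Ptpn1 (0.990). Those most like Stat3 were Trpv2 (0.995), Map7d1 (0.994) and H13 (0.994), and those most like Cish were Trim15, Procr and Nfil3 (0.990 each). Groups among the 10 points share a table, sex or culture, so these values only describe likeness.

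The first comparison asked what a crushed sciatic nerve does to the pathway in the ganglion within 1 day. In control mice 8 of the 10 genes rose and none fell, by edgeR's quasi-likelihood test with Benjamini-Hochberg adjustment over all genes tested. Of all 21261 genes tested, 21.6% were called, and 12.9% were called higher. The 4 SOCS family inhibitors changed most: Socs3 rose 4.18-fold, Cish 2.72-fold, Socs1 1.89-fold and Socs2 1.84-fold. The transcription factors rose less, Stat3 1.496-fold, Stat5a 1.41-fold and Stat5b 1.30-fold, and of the kinases Jak2 rose 1.37-fold. Jak1 and Pias3 did not pass the test. The 8 genes that rose had all crush above all naive libraries, as did 21% of all genes tested. The median of the 10 log2 differences was 0.54, against -0.018 over all genes tested.

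Socs3 encodes the inhibitor that binds gp130 and JAK kinases. Its level was 21.7, 11.5 and 13.3 CPM in the 3 naive control libraries and 75.8, 57.9 and 59.9 CPM in the 3 crush control libraries. Every crush library was above every naive library. The fitted log2 difference was 2.06 with a standard error (SE) of 0.19 (adjusted p = 1.9e-05). The high naive library was replicate 1, the one with neutrophil markers at 579 CPM, and without it the log2 difference was 2.38.

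Cish, an inhibitor induced by STAT5 in many cells, was at 7.38, 7.41 and 6.53 CPM in naive control and at 20.7, 19.97 and 17.2 CPM in crush control ganglia. The groups did not overlap, and the log2 difference was 1.44 (SE 0.14, adjusted p = 2.56e-05). Its antisense neighbour Gm17041 went from 4.91 to 6.001 CPM in naive control to 13.9 to 15.6 CPM in crush control libraries, and Gm17040 from 0.396 to 0.772 CPM to 1.13 to 1.25 CPM, and the part of shared reads in this was not tested. Socs2, an inhibitor best known at the growth hormone receptor, was at 44.9, 42.7 and 43.4 CPM before and 89.6, 79.8 and 71.7 CPM after crush, again without overlap. Its log2 difference was 0.88 (SE 0.079, adjusted p = 1.6e-05). Socs1, an inhibitor of JAK kinases best known in interferon responses, was scarce. It went from 2.19, 1.53 and 1.505 CPM, which is 36 to 51 counts a library, to 3.09, 3.53 and 3.26 CPM (log2 difference 0.92, SE 0.21, adjusted p = 0.00938).

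Stat3 itself stood at 239, 272 and 255 CPM in naive control and at 376, 407 and 362 CPM in crush control ganglia. All 3 crush libraries lay above all 3 naive ones, and the log2 difference was 0.58 (SE 0.067, adjusted p = 0.0001). Stat5b went from 49.5, 50.4 and 52.2 CPM to 65.4, 67.0 and 64.9 CPM, a log2 difference of 0.38 (SE 0.041, adjusted p = 6.58e-05). Stat5a rose from 6.17 to 7.29 CPM to 9.20 to 10.3 CPM (log2 difference 0.49, SE 0.14, adjusted p = 0.023). That call was lost without naive control replicate 2 (0.43, adjusted p = 0.0753), without crush control replicate 1 (0.44, adjusted p = 0.0879) and on deposited FPKM (0.33, adjusted p = 0.0632).

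Of the kinases, Jak2 was at 27.7, 24.4 and 26.3 CPM in naive control and at 37.4, 34.7 and 34.8 CPM in crush control ganglia, without overlap (log2 difference 0.45, SE 0.063, adjusted p = 0.000385). Jak1 overlapped between the groups, with 269.8 to 312 CPM in naive and 284 to 326 CPM in crush libraries. The 95% interval of its log2 difference ran from -0.071 to 0.21. Pias3, the inhibitor that binds Stat3 in the nucleus, lay between 19.1 and 19.8 CPM in naive and between 18.9 and 19.9 CPM in crush libraries. The interval of its log2 difference ran from -0.17 to 0.16.

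In cKO mice 7 of the 10 genes rose and none fell, where 18.6% of all genes tested were called and 10.7% were called higher. In 8 genes, Stat5a among them, all crush lay above all naive libraries, as in 19.9% of all genes. Socs3 was at 11.3, 13.9 and 12.9 CPM in naive and at 58.3, 62.9 and 53.5 CPM in crush cKO ganglia, 4.55-fold higher by the fit (log2 difference 2.18, SE 0.19, adjusted p = 1.77e-05). Cish went from 6.88, 8.47 and 7.19 CPM to 16.0, 23.4 and 17.7 CPM (log2 difference 1.32, SE 0.14, adjusted p = 5.67e-05). Neither gene overlapped between naive and crush. Socs2 (log2 difference 0.75), Jak2 (0.57), Stat3 (0.41) and Stat5b (0.29) also rose, each without overlap. Stat3 went from 281, 262 and 279 CPM to 346, 387 and 371 CPM (adjusted p = 0.00121).

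Socs1 was at 1.83, 1.88 and 1.18 CPM in naive and at 2.11, 3.40 and 2.83 CPM in crush cKO ganglia. Its log2 difference of 0.75 (SE 0.22, adjusted p = 0.0327) was the least firm of the 7 calls. It was lost without naive cKO replicate 1 (0.84, adjusted p = 0.0524) or 3 (0.56, adjusted p = 0.132) and without crush cKO replicate 2 (0.58, adjusted p = 0.134) or 3 (0.72, adjusted p = 0.0855). Stat5a also lay higher in each crush library (8.27 to 10.2 CPM against 5.50 to 8.21 CPM) but did not pass the test (log2 difference 0.37, adjusted p = 0.0818). Jak1 (0.020) and Pias3 (-0.035) overlapped between the groups.

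Because 2 of the 3 crush cKO libraries were male by transcripts and the naive cKO libraries female, sex and crush partly coincide in the cKO comparison. With only the female libraries, which leaves 1 crush cKO library whose spread is taken from the other groups, 5 genes kept their calls: Socs3 at 2.19, Cish at 1.07, Socs2 at 0.71, Jak2 at 0.51 and Stat5b at 0.26. Stat3 then stood at 0.32 (adjusted p = 0.0897) and Socs1 at 0.36 (adjusted p = 0.557), neither called. With sex by transcripts as a covariate the same 5 were called, and Stat3 was at 0.32 (adjusted p = 0.0560) and Socs1 at 0.36 (adjusted p = 0.530). Stat5a, which had not passed in the main fit, stood at 0.20 in both fits. In control mice, where all 6 libraries were female by transcripts, 8 genes were called in each of these fits.

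The difference between the responses was tested directly as the crush effect in cKO minus that in control. None of the 10 genes was called by edgeR (0% of all 21261 genes were), and none had an unadjusted p under 0.05. DESeq2 and limma called none either. The interval of this difference ran from -0.38 to 0.035 for Stat3, from -0.46 to 0.70 for Socs3 and from -0.54 to 0.30 for Cish on the log2 scale. The other estimates were 0.12 for Jak2, -0.12 for Stat5a, -0.083 for Stat5b, -0.051 for Jak1, -0.17 for Socs1, -0.13 for Socs2 and -0.030 for Pias3.

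In bulk ganglia, a change in the number of cells of a type and a change in RNA per cell cannot be told apart. Summed markers overlapped between naive and crush control ganglia for 9 of 10 cell types. Neuronal markers summed to 5084 to 5681 CPM in naive and 5300 to 5489 CPM in crush control libraries, and macrophage markers to 87.0 to 141 CPM and 108 to 131 CPM. The exception was the list of 4 T cell markers, at 2.04 to 3.09 CPM in naive and 0.983 to 1.83 CPM in crush libraries. In cKO ganglia the exception was neutrophil markers, at 157 to 306 CPM in naive and 48.3 to 108 CPM in crush libraries. Their part in the results was not tested.

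The rest of the pathway, taken from 4 lists, was read beside the 10 genes. Of 16 other JAK, STAT, SOCS, PIAS and phosphatase genes in the tables, 5 rose in control mice and none fell: Stat2 (log2 difference 0.76), the phosphatase genes Ptpn1 (0.85) and Ptpn2 (0.41), Jak3 (0.54) and Socs4 (0.35). Of all genes tested, 12.9% rose in control mice and 10.7% in cKO mice. The median of the 16 was -0.031. In cKO mice 4 of these 16 rose, Ptpn1 (0.80), Stat2 (0.60), Ptpn2 (0.41) and Jak3 (0.58). The phosphatases encoded by Ptpn1 and Ptpn2 remove phosphate from JAK kinases.

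Among 13 gp130 cytokines and receptors, 3 rose and none fell in control mice: Il6 (log2 difference 4.26) and the receptor genes Osmr (0.70) and Il6st (0.28). The other 10 did not pass, and 3 of 13 stands beside 21.6% of all genes called, 12.9% higher. Il6 went from 0.386, 0.255 and 0.0396 CPM in naive control to 5.13, 4.42 and 3.57 CPM in crush control libraries. In cKO mice 2 rose, Il6 (3.78) and Osmr (0.36), beside 18.6% of all genes called and 10.7% higher.

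Of 11 other receptors that use JAK kinases, 2 rose and 2 fell in control mice, where 21.6% of all genes were called. Il4ra, the interleukin-4 receptor chain, rose from 48.3 to 53.7 CPM to 108 to 131 CPM (1.27), and Ifnar1, an interferon receptor chain, rose by 0.26 on the log2 scale. Prlr, the prolactin receptor, fell by 0.62 and Epor, the erythropoietin receptor, fell by 1.42, Epor being scarce at 0.401 to 1.89 CPM and highest in naive control replicate 1. In cKO mice Il4ra rose (1.20) and Ghr, the growth hormone receptor, fell by 0.45, where 18.6% of all genes were called. Counts this near the share over all genes set neither the gp130 list nor these receptors apart.

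Of 14 genes known as targets of STAT3 or STAT5, 13 were tested, of which 9 rose and none fell in control mice, with a median of 0.56, where 12.9% of all genes rose. The largest differences were those of Sprr1a, a gene known to be induced in injured sensory neurons (0.558 to 1.39 CPM in naive and 33.7 to 41.9 CPM in crush libraries, log2 difference 5.39), and Timp1 (2.25). Bcl3 (1.39), Cebpd (1.15), Pim3 (1.08) and Pim1 (0.92) followed. In cKO mice 8 rose and none fell, where 10.7% of all genes rose, among them Sprr1a (5.75), Timp1 (2.49), Pim1 (1.09), Bcl3 (1.06), Pim3 (0.95) and Cebpd (0.93). Such genes answer to other factors too, so their counts do not measure STAT activity.

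**Figure D2:**
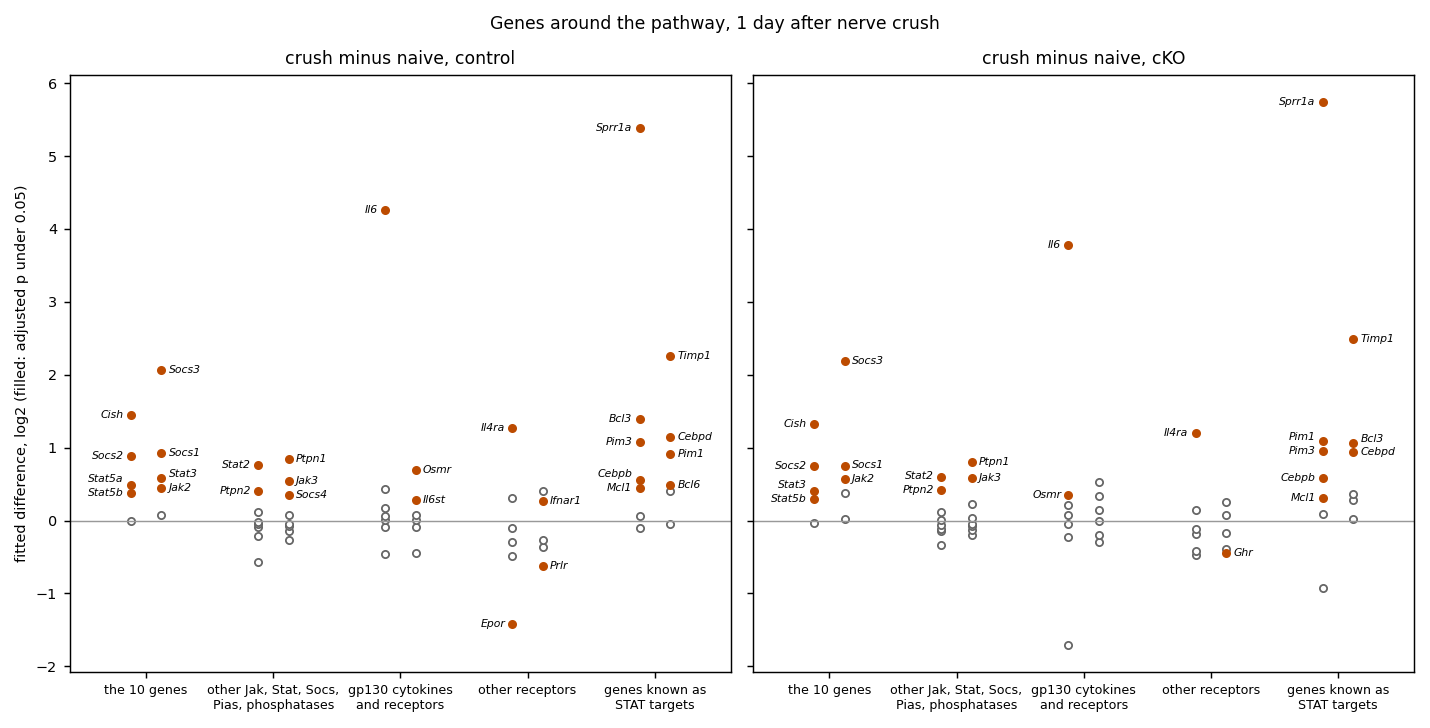
Fitted log2 differences, crush minus naive, of each tested gene of the 10 and of 4 lists around the pathway, in control (left) and cKO (right) ganglia, 3 libraries a group. Filled and named points have an adjusted p under 0.05. Sprr1a (5.39 and 5.75) and Il6 (4.26 and 3.78) lie highest, and most of the other JAK, STAT, SOCS and PIAS genes lie near 0.

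Sham surgery gives the background of an operation without a crush. With both genotypes together, none of the 10 genes was called between ipsilateral and contralateral ganglia by edgeR (0.00451% of all 22160 genes tested were, which is 1 gene), and 6 had an unadjusted p under 0.05, as had 1675 genes of all tested (7.56%). Without overlap, 5 genes were higher in all 4 ipsilateral than in all 4 contralateral libraries, Socs3, Socs1, Cish, Socs2 and Jak2. Of all genes tested, 2.17% showed this. DESeq2 called 3 of the 10, Socs3 (adjusted p = 2.19e-05), Cish (0.0171) and Socs1 (0.0468), and edgeR without a filter on low counts called 4, these and Socs2 (0.0346). Over all genes these settings called 200 and 381. On deposited FPKM limma called none.

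Socs3 was at 21.3 and 17.1 CPM in contralateral control and 31.1 and 38.9 CPM in ipsilateral control ganglia, and at 20.1 and 18.6 CPM against 23.5 and 38.6 CPM in cKO. Every ipsilateral library exceeded the contralateral library of the same mouse, a pairing that the main fit leaves out. The log2 difference was 0.80 (SE 0.16, unadjusted p = 0.00129, adjusted p = 0.287, edgeR). Without ipsilateral cKO replicate 1 it was 0.95 and called (adjusted p = 0.0255), in a fit that called 85 genes in all instead of 1. That library had neutrophil markers at 495 CPM, against 131 to 238 CPM in the other ipsilateral libraries. Without ipsilateral cKO replicate 2, the library with skeletal muscle markers at 1371 CPM, it was 0.59 (adjusted p = 0.228).

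Socs1 was at 1.81, 1.75, 1.71 and 1.99 CPM in the contralateral and at 2.62, 3.70, 2.73 and 4.08 CPM in the ipsilateral libraries (log2 difference 0.87, adjusted p = 0.290). Cish was at 7.003, 6.33, 6.25 and 6.25 CPM against 10.7, 8.52, 8.22 and 12.9 CPM (0.67, adjusted p = 0.352). The sides were apart for both genes, and the ipsilateral libraries were more spread out than the contralateral ones. Stat3 overlapped between the sides (448 to 497 CPM contralateral, 468 to 534 CPM ipsilateral), and its log2 difference of 0.11 had an interval from -0.028 to 0.24. The other fitted differences were 0.34 for Socs2, 0.25 for Stat5a, 0.20 for Jak2, 0.13 for Stat5b, 0.081 for Pias3 and -0.039 for Jak1. Summed markers of all 10 cell types overlapped between the sides. The side effect in cKO minus that in control, from -0.14 for Socs3 to 0.26 for Cish, was called for none of the 10 genes (0% of all genes, edgeR), and none had an unadjusted p under 0.05.

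The crush effect, averaged over the genotypes, was then set against the side effect of sham surgery in a fit of all 20 ganglion libraries, a comparison chosen after seeing the data. It was larger for 6 of the 10 genes and smaller for none, where 9.19% of all 22254 genes tested were called and 6.09% were larger. Socs3 exceeded the sham effect by 1.34 (SE 0.23, adjusted p = 0.00164), Cish by 0.73 (SE 0.18, adjusted p = 0.0184), Socs2 by 0.48, Stat3 by 0.40, Jak2 by 0.31 and Stat5b by 0.21 on the log2 scale. Socs1 did not differ by this test, at -0.029 with an interval from -0.55 to 0.49, and it turned positive in 7 of the fits with 1 library left out. Stat5a (0.19), Jak1 (0.095) and Pias3 (-0.092) did not pass either. Cish lost its call without contralateral control replicate 1 (0.69, adjusted p = 0.0501), and Stat5b without that library (0.20, adjusted p = 0.0514), contralateral cKO replicate 1 (0.18, adjusted p = 0.0523) or ipsilateral cKO replicate 1 (0.19, adjusted p = 0.0571). On deposited FPKM Jak2 (0.22, adjusted p = 0.0732) and Stat5b (0.13, adjusted p = 0.114) lost theirs, as did Stat5b without a filter on low counts (0.22, adjusted p = 0.0559). Of the lists, Il6 (3.13), Sprr1a (2.96), Il4ra (0.86), Pim1 (0.83), Pim3 (0.65), Bcl3 (0.64), Ptpn1 (0.46) and Osmr (0.41) exceeded the sham effect by edgeR, and Epor lay below it (-1.5002, adjusted p = 0.0447). Naive and crush ganglia came from different mice and the sham sides from the same mice, but this fit leaves out that pairing. The 2 sets were deposited in separate tables, and the sham mice were male. These differences cannot be told apart from the kind of surgery.

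**Figure D3:**
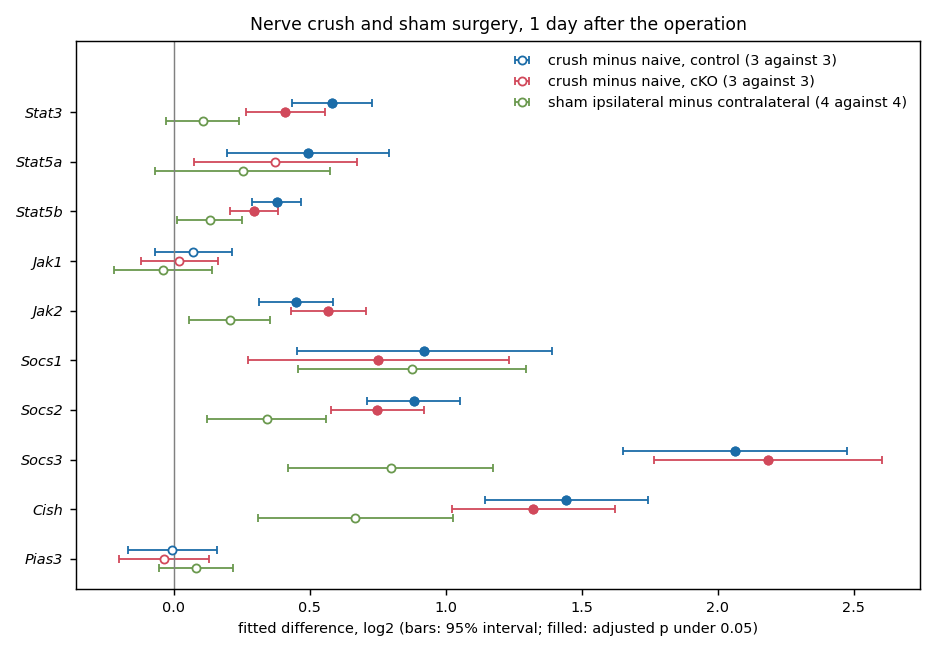
Fitted log2 differences of the 10 genes for crush minus naive in control (blue) and cKO (red) ganglia and for ipsilateral minus contralateral ganglia after sham surgery (green). Bars are 95% intervals, and filled points have an adjusted p under 0.05 in edgeR. Socs3 stands at 2.06 and 2.18 after crush and at 0.80 after sham surgery, while the 3 intervals of Socs1 cover each other's estimates.

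Cultured neurons were compared with contralateral sham ganglia, cKO with cKO and control with control. Control neurons were all from Ahr fl/fl mice, and the 2 contralateral control libraries from 1 Ahr f/+ and 1 Ahr fl/fl mouse. The groups also differ in sex, in culture, in cell composition and perhaps in age and tamoxifen treatment, so the fit describes all of these at once. All 10 genes were called in each genotype, 9 higher and 1 lower, where 67.8% of 24192 genes were called in control (35.2% higher, 32.6% lower) and 64.7% in cKO (33.9% higher, 30.8% lower). Most genes were called here, so a call by itself sets none of the 10 apart.

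Socs1, Socs3 and Cish had the largest differences of the 10 genes. Socs3 was at 104, 92.2 and 82.5 CPM in control neurons against 21.3 and 17.1 CPM in contralateral control ganglia, 5.03-fold by the fit (log2 difference 2.33, SE 0.19, adjusted p = 4.47e-07). Socs1 was at 11.9, 7.46 and 7.24 CPM against 1.81 and 1.75 CPM, 5.11-fold (2.35, SE 0.26). Cish was at 20.5, 24.0 and 29.1 CPM against 7.003 and 6.33 CPM, 3.84-fold (1.94, SE 0.20). No neuron library of these 3 genes reached down to the ganglia.

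Stat5a (log2 difference 1.47) and Jak2 (1.15) differed more than Stat3, which was at 583, 577 and 587 CPM in neurons and 476 and 466 CPM in ganglia (0.36, SE 0.074, adjusted p = 0.000896). Socs2 (0.96), Pias3 (0.45) and Stat5b (0.22) were higher as well. The Stat5b call in control was lost without control neuron replicate 2 (0.17, adjusted p = 0.0525), without contralateral control replicate 2 (0.17, adjusted p = 0.159), without a filter and with only the 2 groups in the fit, and in cKO without contralateral cKO replicate 2 (0.21, adjusted p = 0.0786). Jak1 alone was lower, at 313, 327 and 350.3 CPM against 498 and 462 CPM, a fall by 0.48 on the log2 scale (SE 0.096, adjusted p = 0.000662). Against ganglia of the other table Jak1 was not lower, which is a description only. Naive control ganglia were at 269.8 to 312.2 CPM, just under the lowest control neuron library at 313.0 CPM. Crush control ganglia, at 284 to 326 CPM, overlapped the control neurons. In cKO the corresponding differences were 2.60 for Socs3, 2.62 for Socs1, 2.47 for Cish, 1.54 for Stat5a, 1.30 for Jak2, 0.99 for Socs2, 0.59 for Pias3, 0.38 for Stat3, 0.28 for Stat5b and -0.36 for Jak1. The culture difference in cKO minus that in control, a test added after seeing the data, ran from 0.023 for Stat3 to 0.53 for Cish and was called for none of the 10 genes by edgeR (0.00413% of all genes, which is 1 gene, the STAT target Zfp36 at 1.25), DESeq2 or limma, and none had an unadjusted p under 0.05.

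Marker levels differed too. Neuronal markers summed to 3250 to 4086 CPM in neurons and 7386 to 8284 CPM in contralateral ganglia, Schwann cell markers to 557 to 697 CPM and 2129 to 3220 CPM, and endothelial markers to 863 to 1303 CPM and 65.8 to 115 CPM. Of the 10 marker lists 8 were lower in every neuron library, and endothelial cells were higher. Satellite glia markers, at 1757 to 1897 CPM in contralateral ganglia, overlapped only through control neuron replicate 1 at 1779 CPM. The other neuron libraries were at 947 to 1233 CPM. Their part in the differences of the 10 genes was not tested.

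The 4 lists were read beside all genes here too, of which 67.8% were called in control neurons, 35.2% higher and 32.6% lower. Of 13 gp130 cytokines and receptors 7 were higher and 3 lower. Lif went from 0.742 and 0.489 CPM in contralateral control ganglia to 215, 231 and 153 CPM in control neurons (log2 difference 8.38), and Il6 (7.98), Il11 (6.76) and Clcf1 (6.28) were also far higher, while Cntf was lower (-2.79), as was Cntfr, the receptor chain that binds it (-1.10), and Il11ra1 (-0.66). Of the 16 other JAK, STAT, SOCS, PIAS and phosphatase genes 9 were higher, among them Jak3 (2.38), Ptpn2 (2.20), Socs6 (1.73), Pias2 (0.99), Ptpn1 (0.82) and Pias1 (0.56), and 1 was lower, Ptpn6 (-1.48). Of the 11 other receptors 5 were higher, among them Il2rg (1.82), Csf2rb (1.44), Il4ra (1.33) and Ifnar1 (0.80), and 2 lower, Prlr (-2.89) and Il10ra (-1.72). Of the 14 STAT targets 12 were higher, among them Sprr1a (5.76), Timp1 (4.44), Pim1 (3.11), Cebpb (2.65), Zfp36 (2.37) and Mcl1 (1.29), and 1 was lower, Igf1 (-2.62). In cKO neurons, where 33.9% of all genes were higher and 30.8% lower, 11 of the 16, 7 of the 13, 5 of the 11 and 12 of the 14 were higher and 1, 4, 3 and 1 lower.

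**Figure D4:**
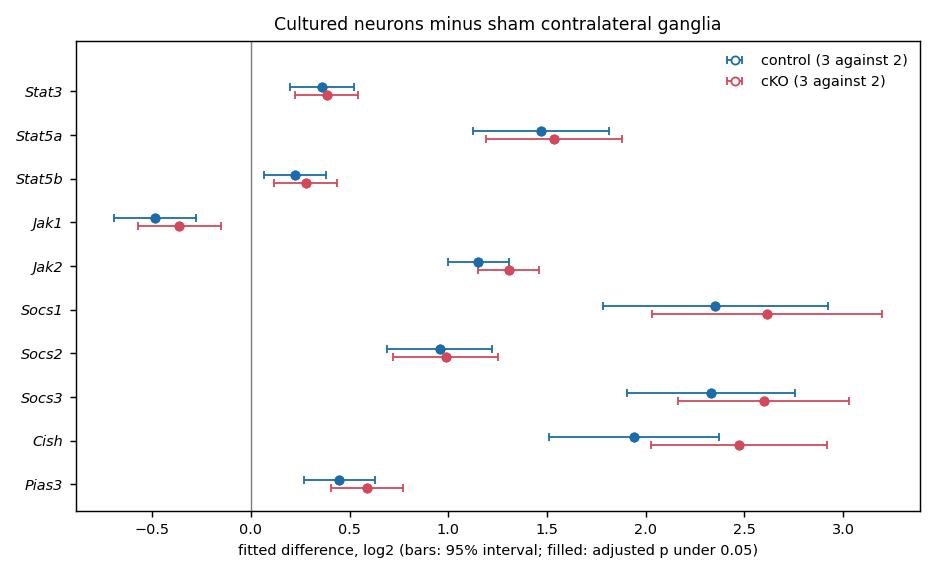
Fitted log2 differences of the 10 genes, cultured neurons minus contralateral sham ganglia, in control (blue) and cKO (red), 3 neuron and 2 ganglion libraries each. Bars are 95% intervals, and filled points have an adjusted p under 0.05 in edgeR. Jak1 is the one gene below 0 (-0.48 and -0.36) against these ganglia, and Socs1, Socs3 and Cish lie farthest above it.

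The study's central comparison is cKO against control. In none of the 5 settings was any of the 10 genes called by edgeR, DESeq2 or limma. Over all genes tested, edgeR called 0.00941% in naive ganglia, 0.00941% in crush ganglia, 0.00451% in ipsilateral sham ganglia, and 0% in contralateral sham ganglia and in neurons. Unadjusted p-values were under 0.05 for 1 of the 10 genes in naive ganglia, for none in crush or sham ganglia and for 2 in neurons. Over all genes tested, 5.79% had such a p in naive, 2.72% in crush, 7.59% in ipsilateral sham and 5.23% in contralateral sham ganglia, and 8.0% in neurons.

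Stat3 overlapped between the genotypes in all 5 settings. In naive ganglia it was at 239, 272 and 255 CPM in control and 281, 262 and 279 CPM in cKO (log2 difference 0.11, interval -0.033 to 0.26). In crush ganglia the interval was -0.20 to 0.087, and in neurons -0.15 to 0.15. Socs3 overlapped in all 5 settings as well, with wider intervals, from -0.71 to 0.16 in naive ganglia and from -0.54 to 0.22 in crush ganglia. Jak1, Socs1 and Socs2 also overlapped in all 5 settings, with log2 differences from -0.020 to 0.078, from -0.25 to 0.29 and from -0.10 to 0.14.

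The largest genotype difference among the 10 genes in neurons was that of Cish. It was at 20.5, 24.0 and 29.1 CPM in control and at 33.1, 33.1 and 32.2 CPM in cKO neurons, so that all cKO libraries were above all control libraries. The control library at 20.5 CPM was replicate 1, which had 25299938 counts and stood apart in satellite glia markers. The log2 difference was 0.41 (SE 0.12, unadjusted p = 0.00725), and adjusted over all 23295 genes it did not pass (edgeR, adjusted p = 0.514). Gm17041, the antisense neighbour, was at 14.4, 17.2 and 21.7 CPM in control and 25.0, 23.3 and 23.7 CPM in cKO neurons, and Gm17040 at 2.46, 3.56 and 3.70 CPM and at 4.53, 4.42 and 4.45 CPM. Stat5a (18.8 to 21.9 against 22.0 to 23.2 CPM) and Jak2 (53.4 to 55.4 against 58.4 to 59.2 CPM) were also above control without overlap, and 7.07% of all genes tested were. In the ganglia of all 4 other settings both overlapped between the genotypes. Socs3 was at 82.5 to 104 CPM in control and 102 to 116 CPM in cKO neurons, overlapping (log2 difference 0.25, unadjusted p = 0.0417, adjusted p = 0.608).

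Pias3 was lower in cKO than in control without overlap in crush ganglia, at 16.9, 18.7 and 16.7 CPM against 19.3, 18.9 and 19.9 CPM, where 4.02% of all genes tested showed this. The log2 difference was -0.16 with an interval from -0.32 to 0.0068 (edgeR, adjusted p = 1.00). It was also below control in ipsilateral (22.7 and 23.8 against 24.8 and 25.5 CPM) and contralateral sham ganglia, where 22.3% and 18.2% of genes were, with 2 libraries a group. Stat5b was above control in naive ganglia (53.3 to 55.5 against 49.5 to 52.2 CPM, log2 difference 0.12, unadjusted p = 0.0152, adjusted p = 0.754), as were 5.79% of genes tested, and in ipsilateral sham ganglia (75.7 and 81.7 against 73.3 and 74.1 CPM), as were 13.5%.

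**Figure D5:**
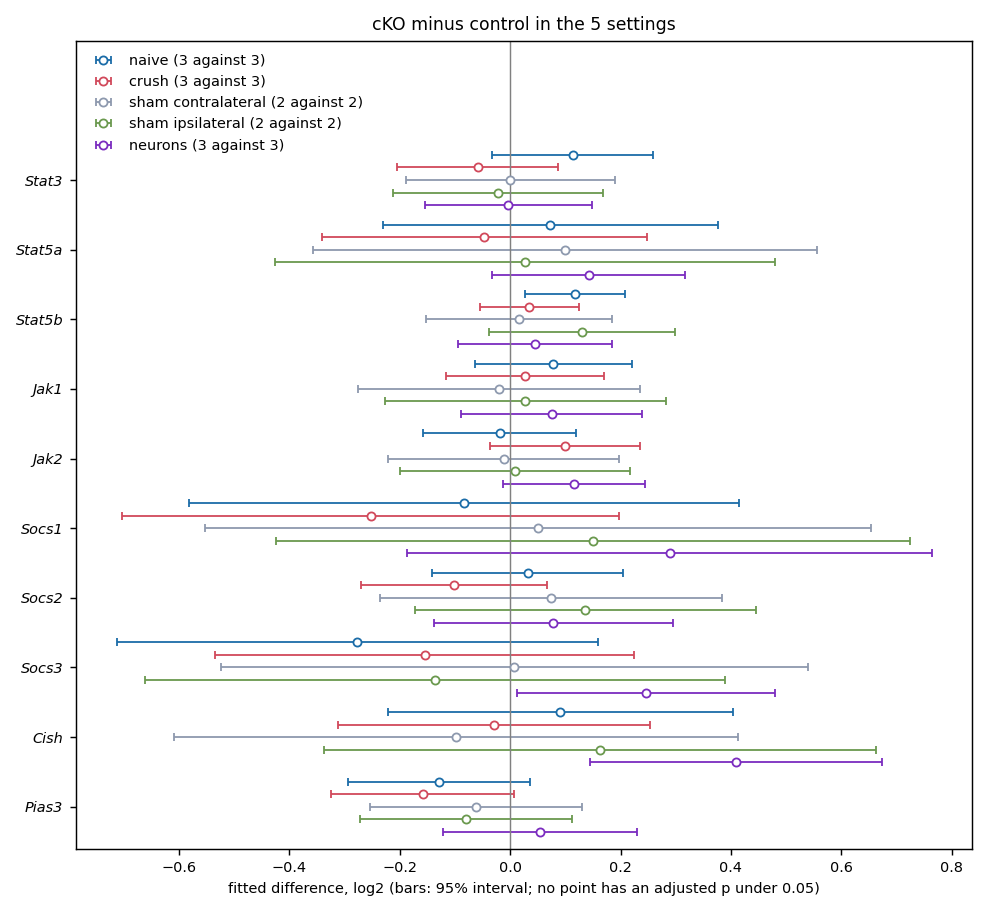
Fitted log2 differences, cKO minus control, of the 10 genes in naive, crush, contralateral sham, ipsilateral sham and neuron libraries. Bars are 95% intervals, and no point has an adjusted p under 0.05 in edgeR. Most intervals include 0, those of Cish (0.41) and Socs3 (0.25) in neurons and of Stat5b (0.12) in naive ganglia being the exceptions.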

How the data were processed

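RNA was extracted with the RNeasy Plus Mini kit and sequenced from TruSeq Stranded mRNA libraries, per the labels' protocols. Trim Galore, HISAT2, featureCounts and mm10 are named in the submitters' processing notes, without versions or settings. The authors deposited raw counts per gene, which were used for all tests, and FPKM, whose length is the gene's span with introns for 100.0% of genes (within 0.1%). Deposited counts ignored strand and counted shared stretches for both genes: Tsix had 100.0% to 100.3% of Xist counts in female libraries. Counts were fitted with edgeR 4.0.16 in R 4.3.3 (TMM, filterByExpr with a minimum count of 10 and total of 15, 1 mean per group), in fits over 12 naive and crush, 8 sham, 6 neuron, 14 sham and neuron, or 20 ganglion libraries, two-sided, called at an adjusted p under 0.05. CPM use TMM factors over all 26 libraries, and exon lengths come from GENCODE M21. Alternatives were DESeq2 1.42.0, limma 3.58.1 on log2(FPKM + 0.1), other filters, scaling and thresholds, sex, the replicate block and leaving out each library. The 10 genes and the lists were chosen with earlier results of these data known. The fixed naming rule took the 10 genes and, of each list, up to 6 called genes of smallest p in a comparison. Cntf, Ptpn6 and Igf1 in neurons fall outside it and were named after their values were seen, in cKO neurons lists are given as counts, and a gene of the gp130 list is not reported here. Ipsilateral and contralateral libraries are paired by mouse, per the labels (r of their deviations 0.24 and -0.19), and the main fits do not use this pairing. Intervals are 95%.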

Additional observations from a re-analysis of the deposited data

Results flagged for a closer look

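The genotype difference of Cish pointed in opposite directions in cultured neurons and contralateral sham ganglia, with every cKO library above every control library in neurons, as in 7.07% of all genes, and below in contralateral ganglia, as in 18.2%. The mean log2 CPM of cKO minus control was 0.43 in neurons and -0.09 in contralateral ganglia, so the settings differed by 0.52. The fitted contralateral difference was -0.098 with an interval from -0.61 to 0.41 (edgeR, unadjusted p = 0.669), which includes 0. Fitted as an interaction over the 14 sham and neuron libraries, a test added after seeing the data, the difference was 0.53 with an interval from -0.048 to 1.11 (edgeR, unadjusted p = 0.0690, adjusted p = 0.571). It did not pass, and 0.00413% of genes did. Among 100 pairs of settings looked at for the 10 genes, this was the 1 pair with opposite sides, and the groups hold 2 or 3 libraries each. Control neuron replicate 1, the lowest neuron library in Cish, also had the lowest total counts of the neuron libraries.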

How the results depend on the processing

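The number of the 10 genes called was 7 to 8 after crush in control mice over 17 settings, 5 to 8 in cKO mice over 17, 9 to 10 for neurons against ganglia in each genotype over 13 and 4 to 6 for crush against sham over 26. It was 0 in every genotype comparison and interaction run, over 12 to 22 settings each. For the sham sides it was 0 with edgeR, 3 with DESeq2, 4 without a filter, and 0 to 1 with a library left out. In the crush comparisons and between sham sides the replicate block changed no count. It gave 8 and 7 after crush in control and cKO mice, and 0 for sham sides. Outside the sham mice, same-numbered libraries are not labelled as pairs (r from -0.48 to 0.47), so that block is only a check. In naive and crush controls the same number also goes with the same genotype label, Ahr fl/+ or Ahr fl/fl. Differences near 0 changed sign in few settings, and the cause was not tested. With a library left out, Pias3 ranged from -0.029 to 0.0084 in control (0.00040 without naive replicate 3) and from -0.10 to 0.038 in cKO. Jak1 ranged from -0.019 to 0.038 in cKO, where it was -0.010 on FPKM, and from -0.13 to 0.028 for sham sides. Socs1 crush against sham ranged from -0.16 to 0.13, with 7 of these fits above 0. Socs1 after crush in cKO lost its call in 8 of its settings, 4 of them with a library left out. Low counts of Socs1 (28 to 946 a library) and 2 or 3 libraries a group limit what these data can show.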
